A study of Mus musculus with 4 samples.

Results

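The densely clustered KAP1 summits are places where sites of the corepressor KAP1 lie close together on a chromosome of mouse regulatory T cells. They were chosen by position alone. Summits of replicate 1 on chromosomes 1 to 19 that had a summit of replicate 2 no more than 200 bp away were called shared, and there were 7641 of them. A shared summit was kept as a member when at least 2 other shared summits lay within 25000 bp of it, which left 1541 members (20.2%, Wilson 95% interval 19.3 to 21.1%). Members within 25000 bp of each other were chained into 504 clusters. The count and spacing of members are therefore what the rule selected on and are given as a description.

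Chromatin immunoprecipitation and sequencing (ChIP-seq) was done on regulatory T cells of C57BL/6 spleen that had been sorted and expanded for 2 weeks. The KAP1 antibody was used on 2 samples, and 2 input samples without antibody were not analysed here. Replicate 1 listed 8862 peak summits and replicate 2 listed 79515, each summit being the highest point of a called peak with a score on a −log10 scale. Read depth is unknown from these lists, nothing in the labels ties the samples to separate cultures or animals, and summit lists cannot be used to check the labelled cell type by expression.

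KAP1, encoded by Trim28, does not read DNA sequence by itself. It is brought to chromatin mainly by KRAB zinc finger proteins and in turn recruits the histone methyltransferase SETDB1 and HP1 proteins, which silence transposable elements and some genes. Mice that lack KAP1 in T cells develop autoimmune inflammation.

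The sequences under several clustered summits show a feature that the selection did not use. The 4 stretches that follow were read at members upstream of a gene start and outside every gene of the RefSeq table. The remaining such member with a run in its stretch, at Ambra1 (14 bases), had the lowest scores, 3.69 and 6.23, and is not printed. The 4 are printed 5′ to 3′ on the strand of the gene named, from RefSeq GRCm38.p6 (the coordinates of mm10). Capitals mark a run of 12 or more adenines or thymines.
Il2ra, chr2:11642696-11642791, + strand: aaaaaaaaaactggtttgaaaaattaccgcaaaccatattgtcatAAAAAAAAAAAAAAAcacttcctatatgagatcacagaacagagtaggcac
Prr12, chr7:45053349-45053528, - strand: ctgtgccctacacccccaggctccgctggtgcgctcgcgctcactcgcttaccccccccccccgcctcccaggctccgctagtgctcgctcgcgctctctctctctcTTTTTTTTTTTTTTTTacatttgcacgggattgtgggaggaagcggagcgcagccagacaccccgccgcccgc
Extl1, chr4:134372548-134372710, - strand: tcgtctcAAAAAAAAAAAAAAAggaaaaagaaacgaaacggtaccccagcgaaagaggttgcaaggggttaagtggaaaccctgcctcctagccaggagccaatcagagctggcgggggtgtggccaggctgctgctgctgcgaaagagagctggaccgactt
Fam117a, chr11:95336768-95336945, + strand: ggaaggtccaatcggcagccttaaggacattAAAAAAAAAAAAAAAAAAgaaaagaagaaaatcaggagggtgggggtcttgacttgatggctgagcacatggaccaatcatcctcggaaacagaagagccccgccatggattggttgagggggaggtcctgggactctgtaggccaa

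The Il2ra summit is at base 91 of its stretch, 31 bp from the run of 15. It scored 58.3 in replicate 1 and 78.3 in replicate 2. At Prr12 the summit is also at base 91, 17 bp from a run of 16, with scores of 51.9 and 81.2. The Extl1 summit (13.3 and 40.4) lies 69 bp from a run of 15 and the Fam117a summit (12.2 and 21.0) lies 40 bp from a run of 18. In all 4, replicate 2 gave the higher score. The same held for the medians of all members (12.98 against 8.81) and of the other shared summits (12.25 against 7.64).

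For comparison, 4 members without such a run are shown from the same kind of position. Capitals in the first pair mark a match to the core of the binding motif of CTCF, the insulator protein, searched on both strands as CCA, AG and GGC with 2 free bases after the first and after the next. The last pair holds neither feature.
Slc35b2, chr17:45563686-45563856, + strand: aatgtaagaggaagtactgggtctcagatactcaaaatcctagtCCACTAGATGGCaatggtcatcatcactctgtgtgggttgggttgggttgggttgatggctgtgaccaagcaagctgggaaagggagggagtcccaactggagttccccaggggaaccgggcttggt
S100a6, chr3:90612737-90612893, + strand: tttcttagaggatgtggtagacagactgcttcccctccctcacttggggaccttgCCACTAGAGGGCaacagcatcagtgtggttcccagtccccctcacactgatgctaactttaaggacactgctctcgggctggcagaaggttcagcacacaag
Tbc1d10b, chr7:127208584-127208718, - strand: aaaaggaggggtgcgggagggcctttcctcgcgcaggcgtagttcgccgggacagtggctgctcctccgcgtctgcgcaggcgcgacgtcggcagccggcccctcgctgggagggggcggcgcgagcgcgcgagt
Tomm22, chr15:79670668-79670847, + strand: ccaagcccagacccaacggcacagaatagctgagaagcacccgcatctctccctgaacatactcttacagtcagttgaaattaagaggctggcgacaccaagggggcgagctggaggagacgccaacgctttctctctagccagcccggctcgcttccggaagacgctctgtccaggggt

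The Slc35b2 summit scored 15.7 in replicate 1 and 23.5 in replicate 2 and lies 31.5 bp from the centre of its match. S100a6 scored 4.17 and 6.41, Tbc1d10b 15.9 and 21.4, and Tomm22 31.0 and 29.0. High scores were therefore also found at some members with no run, as at Tomm22. These 4 were chosen after the data were seen and are not typical in score. The 68 members in promoter windows without a run had medians of 7.25 and 8.33.

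Most shared summits stood alone. Of the 7641, 3825 had no other shared summit within 25000 bp, 2275 had 1, 984 had 2, 381 had 3, 145 had 4, 28 had 5 and 3 had 6. The clusters were small: 251 held 3 members, 80 held 4, 36 held 5, 15 held 6, 4 held 7, 2 held 8, 1 held 10 and 1 held 12. A further 96 clusters held 1 member and 18 held 2, because the neighbours that qualify a summit need not qualify themselves. The 390 clusters of 3 or more held 1409 members, with a median span of 18471.5 bp (range 1276 to 106909 bp) and 8054.7 kb in all. Within clusters the median gap between neighbouring members was 6778 bp, and 114 of 1037 gaps (10.99%) were of 1000 bp or less. Paired summits lay a median of 6 bp apart in members and in other shared summits, a distance that the rule itself held to 200 bp.

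**Figure D1:**
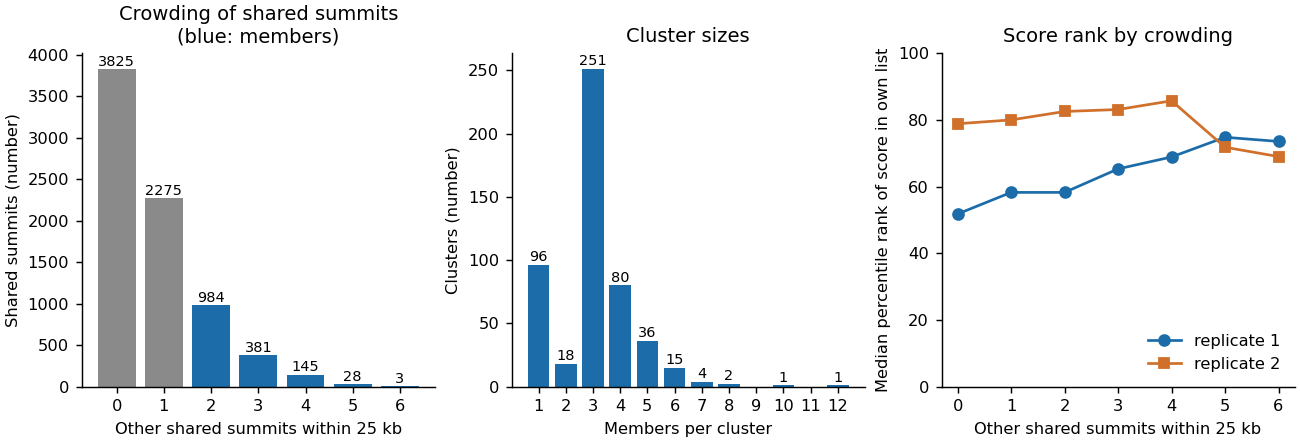
Left, shared summits (number) by how many other shared summits lie within 25 kb, with members in blue. Middle, clusters (number) by members per cluster. Right, median percentile rank of the score in its own list by number of such neighbours; from 0 to 4 it rises from 51.8 to 68.9 in replicate 1 (circles) and from 78.9 to 85.7 in replicate 2 (squares), and at 5 (n = 28) and 6 (n = 3) it is 74.8 and 73.6 in replicate 1 and 71.8 and 69.0 in replicate 2.

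Members had slightly higher median scores than the 6100 other shared summits. Their median score was 8.81 in replicate 1 (range 1.36 to 93.8) and 12.98 in replicate 2 (3.23 to 116.8), against 7.64 and 12.2. In replicate 2 the lower and upper quartiles of members, 7.67 and 22.37, were slightly below those of other shared summits, 7.77 and 22.96. The median percentile ranks within each list were 63.3 and 82.8 for members and 53.3 and 79.1 for other shared summits. Of members, 13.6% (12.005 to 15.4%) were in the highest-scoring 10% of replicate 1, against 10.98% (10.2 to 11.8%) of other shared summits. The corresponding shares of replicate 2 were 40.6% and 39.1%, whose intervals overlap. At the edge of the rule, the 120 shared summits whose second neighbour lay 23000 to 25000 bp away had median scores of 8.34 and 11.7, and the 143 with it at 25000 to 27000 bp had 8.40 and 13.7.

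Scores within a cluster are described next. In clusters of 3 or more, the highest score was a median of 3.28 times the lowest in replicate 1 and 3.66 times in replicate 2. Such a ratio is above 1 by construction, and it was not computed for other shared summits. Over all members the quartiles were already 5.93 and 14.4 in replicate 1 and 7.67 and 22.4 in replicate 2. A ratio of −log10 scores is not a ratio of binding. The same member was highest in both replicates in 283 of 390 clusters (72.6%, 67.9 to 76.8%). The share was 75.7% for clusters of 3, 67.5% for clusters of 4 and 66.1% for larger ones. Across members, the ranks of both scores had a Spearman's rho of 0.745 (n = 1541 summits of the same 2 libraries), given as a description.

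The cluster with most members runs from Kcnn4 to Plaur (chr7:24367212-24474120) and holds 12 summits over 106909 bp. Kcnn4 encodes a calcium-activated potassium channel of activated T cells, and Plaur encodes the urokinase receptor. The highest replicate 1 score, 79.5, was at position 24369978, 152 bp inside Kcnn4 and 285 bp before another of its listed starts, where replicate 2 scored 55.0. A summit 2998 bp outside Plaur scored 63.7 and 55.3, and one inside Plaur at position 24474120 scored 24.0 and 69.4. The members at positions 24367212 and 24378412, scored 22.5 and 29.8 in replicate 1 and 27.0 and 34.4 in replicate 2. Between these outer peaks, over the nonsense-mediated decay gene Smg9 and the GTPase gene Irgc1, 5 members had scores of 6.38 to 13.2 in replicate 1 and 10.7 to 17.2 in replicate 2.

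The second largest cluster holds 10 members over 79246 bp (chr7:28958224-29037469) across Actn4, Eif3k, Map4k1 and Ryr1. Map4k1 encodes a kinase that restrains T cell receptor signalling. Its intragenic member at position 28991836 had the highest replicate 2 score of the cluster, 106.9, and scored 43.5 in replicate 1. The replicate 1 maximum, 57.6, was at position 28981842 (70.8 in replicate 2), 46 bp past a start of the initiation factor gene Eif3k and 208 bp before a start of Map4k1. The 5 members in Ryr1, a calcium release channel gene, scored 5.56 to 13.2 in replicate 1 and 6.73 to 24.0 in replicate 2, the highest of them at position 29025243 in both.

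Cytip, which encodes a cytohesin-binding protein of lymphocytes, had 8 members over 81776 bp (chr2:58107407-58189182). The replicates differed on the strongest one. Replicate 2 was highest at position 58135336, with 81.7 against 21.2 in replicate 1, and replicate 1 was highest at position 58189182, with 29.9 against 47.9 in replicate 2. The ubiquitin ligase gene Rnf157 also had 8 members nearby (chr11:116369676-116433520), of which 5 were inside the gene and 3 lay next to Ubald2. The strongest, at position 116424370, scored 24.5 and 55.1.

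The tumour necrosis factor locus carried 7 members over 36730 bp (chr17:35168989-35205718), spread along Aif1, Lst1, Ltb, Tnf and Lta. Ltb, Tnf and Lta encode cytokines of the TNF family. The member 140 bp outside Lta scored 25.3 and 23.5, and one inside Lta scored 8.34 and 5.64. No member fell inside Ltb or Tnf. The highest scores, 39.0 and 49.2, were at position 35168989, 1997 bp outside Aif1.

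Pim1, a kinase gene induced by cytokines, had the only cluster to rank among the largest, the densest and the highest scoring. Its 6 members span 13944 bp (chr17:29485177-29499120). The strongest, at position 29492935, lay 2150 bp inside the gene, 150 bp before one of its listed starts, and scored 41.8 and 53.6. The other 5 scored 11.9 to 17.2 in replicate 1 and 9.55 to 25.5 in replicate 2, so both samples had the same maximum.

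**Figure D2:**
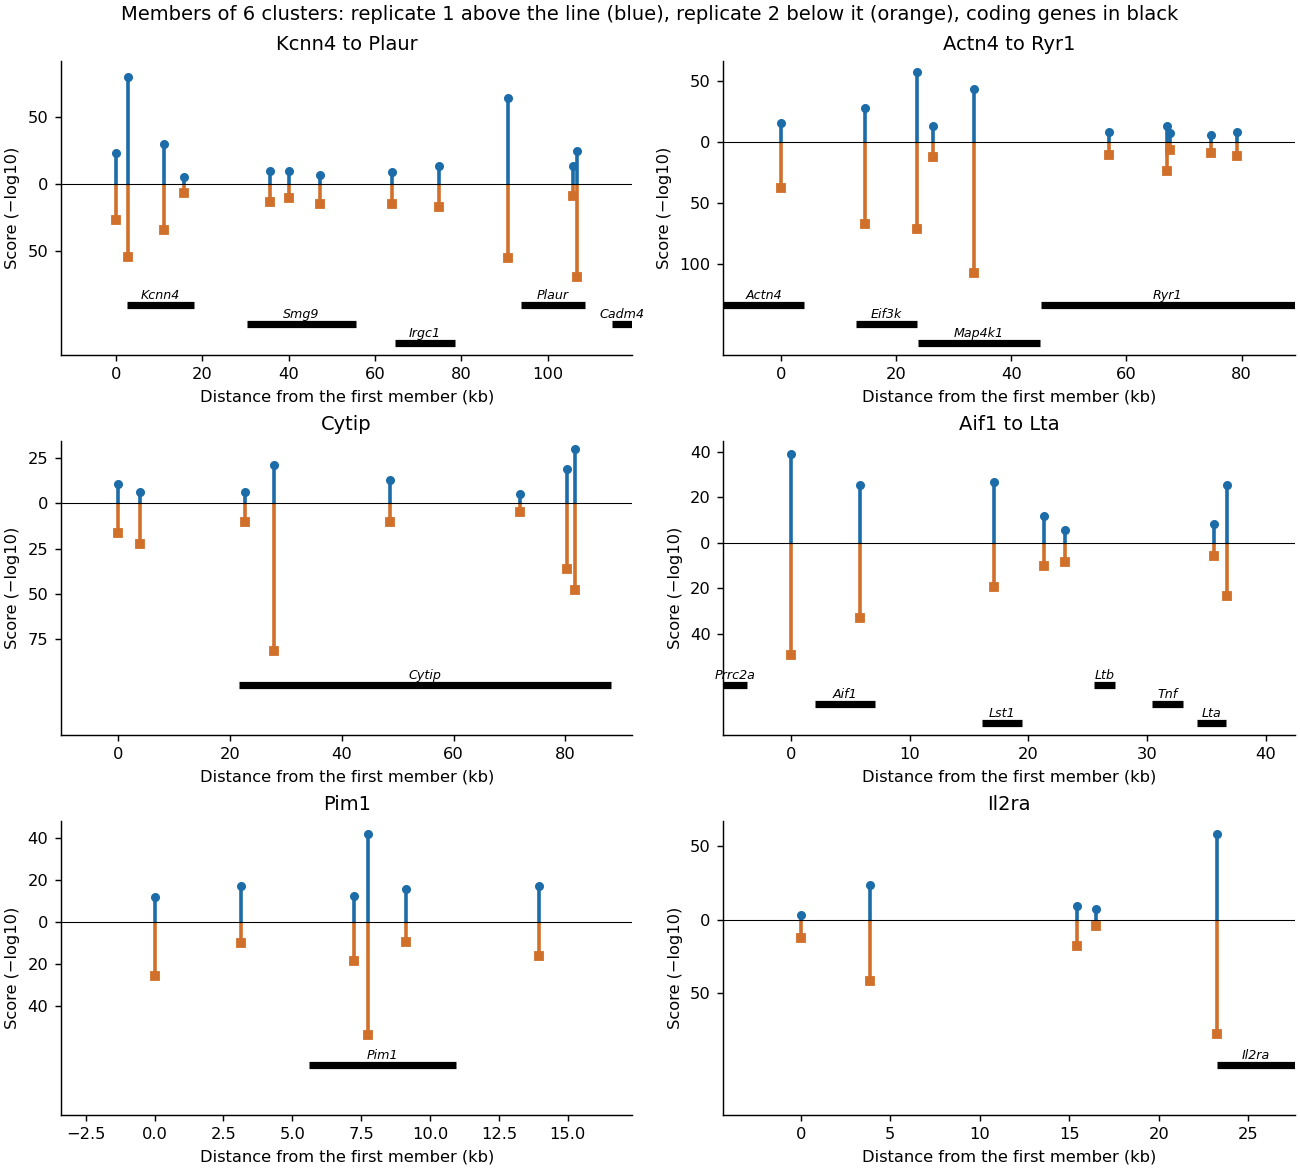
Scores (−log10) of the members of 6 clusters by distance from the first member (kb), replicate 1 above the line in blue and replicate 2 below it in orange, with coding genes as black bars. The same member is highest in both samples at Il2ra (58.3 and 78.3, next to the gene) and at Pim1 (41.8 and 53.6, inside it), whereas at Cytip the replicates have different highest members.

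Further named clusters were as follows. Sae1 and Zc3h4 shared 7 members with scores no higher than 10.7 and 12.02. Mex3d, Mbd3, Uqcr11 and Tcf3, the last encoding the E protein E2A, shared 7, led by one in Uqcr11 (32.5 and 29.5) in replicate 1 and one outside Mex3d (8.06 and 40.6) in replicate 2. A cluster of 6 on chromosome 7 (chr7:73589368-73617771) covered no coding gene, and the nearest, Chd2, was 47622 bp away. The replicates differed on its strongest member: replicate 1 was highest at position 73611846, with 35.8 against 23.4 in replicate 2, and replicate 2 at position 73589368, with 24.7 against 8.09 in replicate 1. A gene-free cluster of 4 on chromosome 9 (chr9:123929047-123936812) lay 25314 bp from the chemokine receptor gene Ccr1. Its replicate 1 scores, 41.6, 37.7, 17.3 and 86.0, were above the replicate 2 scores, 16.1, 10.4, 32.0 and 48.4, at 3 of its 4 members.

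Glb1, the lysosomal beta-galactosidase gene, had the highest mean rank of the clusters of 4 or more. Its 5 members were all inside the gene (chr9:114418425-114443707) and scored 29.8, 47.0, 26.4, 10.2 and 35.5 in replicate 1 and 23.3, 40.2, 51.0, 15.7 and 51.5 in replicate 2. The densest cluster of at least 4 members held 4 in 5773 bp of Tmpo, a nuclear lamina gene, led by one 174 bp before a start (33.3 and 56.7).

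Regulatory T cell genes and T cell identity genes were among the genes that clusters covered, meaning that the gene overlapped the span from the first to the last member. Clusters covered 518 of 20661 coding genes on chromosomes 1 to 19, a background of 2.51%. They covered 7 of 36 regulatory T cell signature genes (19.4%, 9.75 to 35.0%) and 8 of 32 genes of T cell identity and T cell receptor signalling (25%, 13.3 to 42.1%). Coding genes of like length were covered at 2.6% and 2.81%. The lists were chosen with results of these data known, so these counts are descriptions, and the intervals hold counting error alone. When the longer list was trimmed to its 8862 highest scores, the clusters covered 70 coding genes, of which 2 were on these lists.

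Within the regulatory T cell list, the covered genes were Batf, Ccr4, Izumo1r, Nrp1, Prdm1, Stat5b and Tnfrsf9. Tnfrsf9, a costimulatory receptor of activated T cells, had 5 members (chr4:150917517-150937321), with scores of 25.4, 22.7, 10.7, 14.4 and 6.64 in replicate 1 and 41.8, 32.5, 3.78, 13.7 and 17.1 in replicate 2. Both samples were highest at the member 2638 bp before the gene. Ccr4, a chemokine receptor of regulatory and helper T cells, had 3, led by one 163 bp before a start (38.3 and 57.9). Prdm1, which encodes the transcriptional repressor Blimp-1, had members of 14.4, 9.37 and 13.3 in replicate 1 and 13.03, 15.96 and 30.3 in replicate 2. Izumo1r, a folate receptor family gene, and Stat5b, a transcription factor downstream of interleukin-2, had 4 members each, none above 17.0 in replicate 1. Batf had 3 weak ones (3.22 to 8.34 and 4.23 to 13.3), and Nrp1 was covered by a cluster of 1 member (17.9 and 31.9).

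The T cell identity genes included Bcl11b, Ets1, Gata3, Ikzf3, Lat, Lck and Prkcq. Gata3, a transcription factor gene, had 4 members inside it (chr2:9867646-9878410), with scores of 26.8, 11.9, 16.7 and 17.3 in replicate 1 and 39.9, 7.85, 14.9 and 22.8 in replicate 2. One lay 190 bp past a start and the strongest 10954 bp past it. Prkcq, a kinase of T cell receptor signalling, had 3 members, the strongest 21495 bp inside the gene (33.1 and 34.1). Lat, an adaptor of the same pathway, had a weak member 64 bp past a start (4.62 and 8.76) and a stronger one outside the gene (17.6 and 38.9). The clusters at Ets1, Ikzf3 and Lck had no member above 13.2 in replicate 1 or 20 in replicate 2. Bcl11b was covered by a cluster of 1 member (8.72 and 6.34).

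Among the genes always examined, Il2ra, the alpha chain gene of the interleukin-2 receptor, had a cluster of 5 members (chr2:11619537-11642786) that ends 6 bp before the gene and so does not count as covering it. All 5 lie upstream of the start, and the nearest to it, at 6 bp, scored 58.3 and 78.3. The 4 farther upstream scored 3.38, 23.3, 9.37 and 7.25 in replicate 1 and 12.5, 41.7, 18.2 and 4.37 in replicate 2. The first of these 4 lay nearest to another gene, Rbm17. Ctla4 had 2 shared summits within 25000 bp, and Ikzf2 and Trim28 had 1 each, none of them a member. Foxp3 had 2, but it lies on chromosome X, outside the rule. Chromosome X held 68 shared summits, of which 12 had 1 neighbour within 25000 bp and 0 had 2 or more.

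Other lists held few covered genes in number, but not all of their shares were low. Il4ra was the covered gene among 26 cytokine receptor and JAK, STAT and SOCS genes, with 5 low-scoring members that extend towards Il21r. Junb was the covered gene among 26 genes of NF-kappaB, NFAT, AP-1 and activation. It was only spanned, with no member inside it or within 1000 bp. Each share was 3.85% (0.682 to 18.9%), an interval that holds the background. Bcl2 and Birc3 were covered among 12 survival genes (16.7%, 4.70 to 44.8%), Birc3 by a cluster of 1 member. That share is close to the 19.4% of the regulatory T cell list. Itgb2 was covered among 17 adhesion and chemokine receptor genes (5.88%), and Tfrc among 9 erythroid markers (11.1%, 1.99 to 43.5%). No gene was covered among 21 KAP1 partners, 20 neuronal genes, 14 myeloid markers and 12 markers of B cells. The upper bounds were 15.5%, 16.1%, 21.5% and 24.2%. These intervals hold the background of 2.51%, so lists this small cannot show a share below it. Ribosomal protein genes were covered at 8.75% (7 of 80, 4.30 to 17.0%), all 7 being small genes of 1583 to 5369 bp. Zinc finger genes named Zfp were covered at 1.80% (7 of 388, 0.877 to 3.68%), an interval that holds the background. None of 1100 olfactory receptor genes (upper bound 0.348%), 78 histone genes (4.69%) or 39 Hox genes (8.97%) was covered. H2-T24 was covered among 38 MHC genes and Irgc1 among 16 immunity GTPase genes. The intervals of the histone, Hox, MHC and GTPase genes hold the background.

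**Figure D3:**
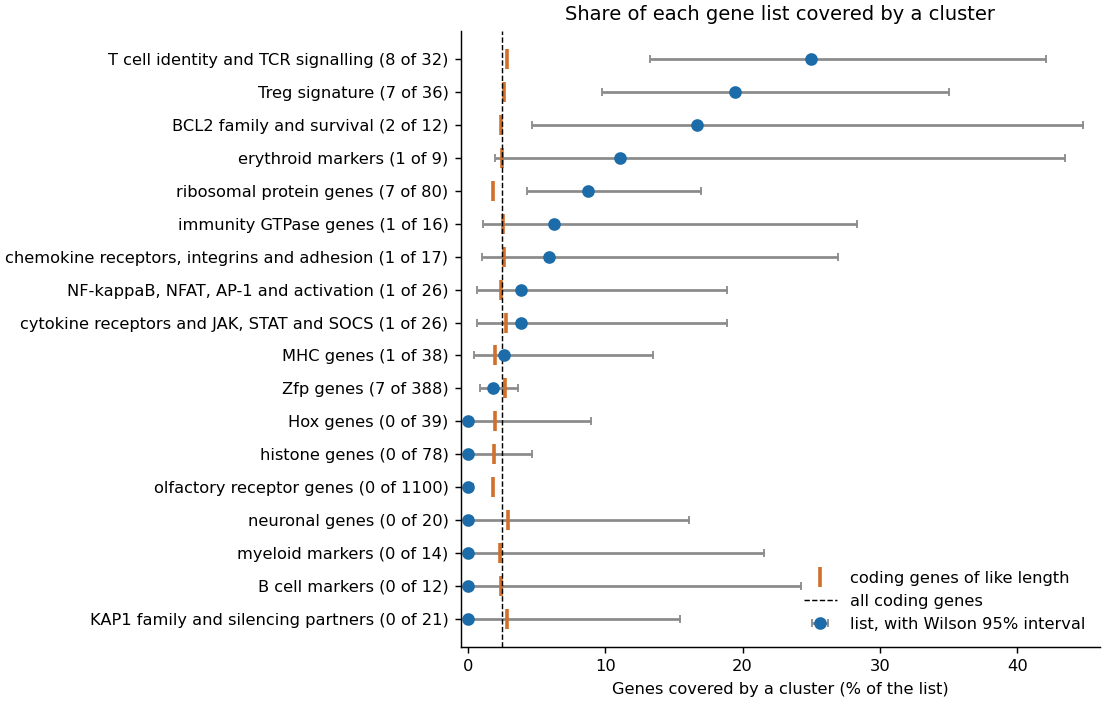
Share of each gene list covered by a cluster (%, points) with Wilson 95% intervals (lines), the share of coding genes of like length (orange marks) and the share of all coding genes, 2.51% (dashed line). The T cell identity list (25%) and the regulatory T cell list (19.4%) lie farthest to the right.

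Noncoding genes were also covered. Clusters spanned 24 of 391 tRNA genes (6.14%, 4.16 to 8.97%), 23 of 1136 miRNA genes (2.03%), 173 of 12408 lncRNA genes (1.39%) and 30 of 8884 pseudogenes (0.338%). Most of the covered tRNA genes lay side by side in a few clusters, such as chr11:69008600-69042019. They are thus not separate cases, although the interval counts them so. The interval of the miRNA share, 1.35 to 3.02%, holds the 2.51% of coding genes. Mir21a and Mir150 were picked from the 23 covered miRNA genes after the data were seen. Mir21a, which encodes a miRNA abundant in activated T cells, lay in a cluster of 5 members (chr11:86578451-86590223), 1760 bp from a member that scored 29.8 and 15.2. Mir150, a lymphocyte miRNA gene, lay 7159 bp from the nearest of 3 members (5.10 and 9.94). Trac, the constant region gene of the T cell receptor alpha chain, lay in a cluster of 5 members (chr14:54209937-54233428) with one inside the gene (6.64 and 8.81).

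Members lay somewhat more inside genes and less at their ends than other shared summits. Of members, 18.04% (16.2 to 20.04%) were within 1000 bp of an end of a coding gene, 47.2% were elsewhere in a gene body and 34.8% were outside, against 23.6%, 42.6% and 33.8% of other shared summits. With starts taken from the RefSeq promoter table, 14.8% (13.1 to 16.7%) of members and 19.3% (18.3 to 20.4%) of other shared summits were within 1000 bp of a start. Of 16456 coding genes with a start in that table, 213 had a member within 1000 bp of it (1.29%). Scores hardly varied with location, with member medians of 9.37 and 13.3 at starts and 8.72 and 12.9 elsewhere.

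Most clusters of 3 or more belonged to few genes. Of 390, 232 covered 1 coding gene (59.5%), 90 covered 2 or more (23.1%) and 68 covered none (17.4%). In 112 (28.7%), every member lay in or within 1000 bp of 1 gene. A member was within 1000 bp of a start in 144 of 384 clusters (37.5%, chromosome 18 left out), and the highest replicate 1 score was at a start in 68 of those 144.

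Clusters were uneven along the genome, and members had more genes nearby than other shared summits. On chromosome 7, 29.1% of shared summits were members, and on chromosome 11, 26.2%, against 8.09% on chromosome 14. These chromosomes held 3.83, 5.71 and 1.88 shared summits per Mb. The rule counts shared neighbours, so the share of members depends on that density by construction. Members had a median of 3 coding genes within 50000 bp and other shared summits 2. No coding gene was that near for 4.22% of members and 7.59% of other shared summits. How much of the clustering follows gene density or the density of shared summits was not tested.

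Summits called in 1 sample only also fell in and around the clusters. Replicate 1 summits without a partner numbered 117 inside the spans, or 1.45 per 100 kb, with 0.471 per 100 kb in the 25000 bp on both sides and 0.0382 over the rest of the chromosomes. Replicate 2 summits without a partner were at 3.72, 5.70 and 2.87 per 100 kb. The rule placed the spans where summits of both replicates pair densely, and these counts leave paired summits out. Both sets of densities are therefore shaped by the rule and are given as a description. The replicate 1 summits inside spans had a median score of 5.10, against 4.44 elsewhere, and 44.4% of them had a replicate 2 summit within 1000 bp, against 27.0% elsewhere. Of the 390 clusters, 92 held such a replicate 1 summit and 183 such a replicate 2 summit.

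**Figure D4:**
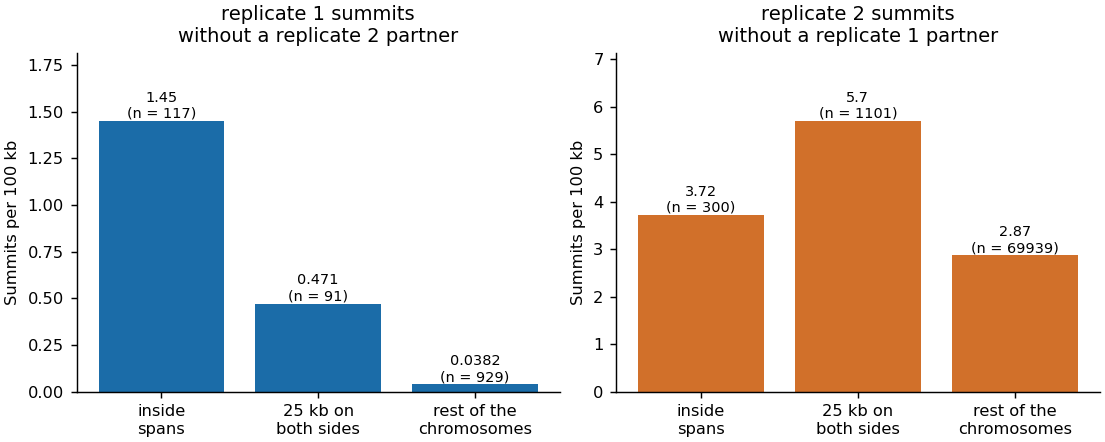
Summits per 100 kb that were called in 1 replicate only (replicate 1 left, replicate 2 right) inside the spans of clusters of 3 or more, in the 25 kb on both sides and over the rest of chromosomes 1 to 19. Replicate 1 falls from 1.45 to 0.471 to 0.0382, whereas replicate 2 is highest beside the spans, at 5.70. The rule placed the spans at densely paired summits, which are left out of these counts, so it shapes both patterns.

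The adenine or thymine runs shown at Il2ra and Prr12 were frequent at promoters with a member. Only the 300-base promoter windows of the RefSeq table (250 bases before a start and 50 after) could be read. A run of 12 or more was present in 27 of 104 windows with a member inside (26.0%, 18.5 to 35.1%), in 106 of 578 with another shared summit (18.3%), in 239 of 515 with a replicate 2 summit alone (46.4%) and in 1 of 100 with a replicate 1 summit alone (1.0%). Over all 31396 windows the share was 3.21%. Members in windows with a run had median scores of 16.5 and 36.5 (n = 24 summits), and those without had 7.25 and 8.33 (n = 68). Other shared summits gave 17.0 and 37.2 with a run and 7.25 and 8.90 without.

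The summits stood in 1 arrangement to the run. All 24 members were within 100 bp, at a median of 58 bp. On the reference strand, 14 lay at the higher coordinate side of an adenine run and 10 at the lower side of a thymine run, which is the same arrangement read on the other strand. No member lay on the opposite side. Of 99 other shared summits with a run, 96 had this arrangement, and of 227 replicate 2 summits with one, 221 had it. The Pim1 summit (a run of 22 at 44 bp), Ccr4 (16 at 33 bp), Map4k1 and Eif3k (21 at 58 bp) and Tmpo (18 at 62 bp) were among the members. The libraries were made with the DNA SMART ChIP-Seq kit, per the labels, and whether the library chemistry or the antibody places summits there was not tested.

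**Figure D5:**
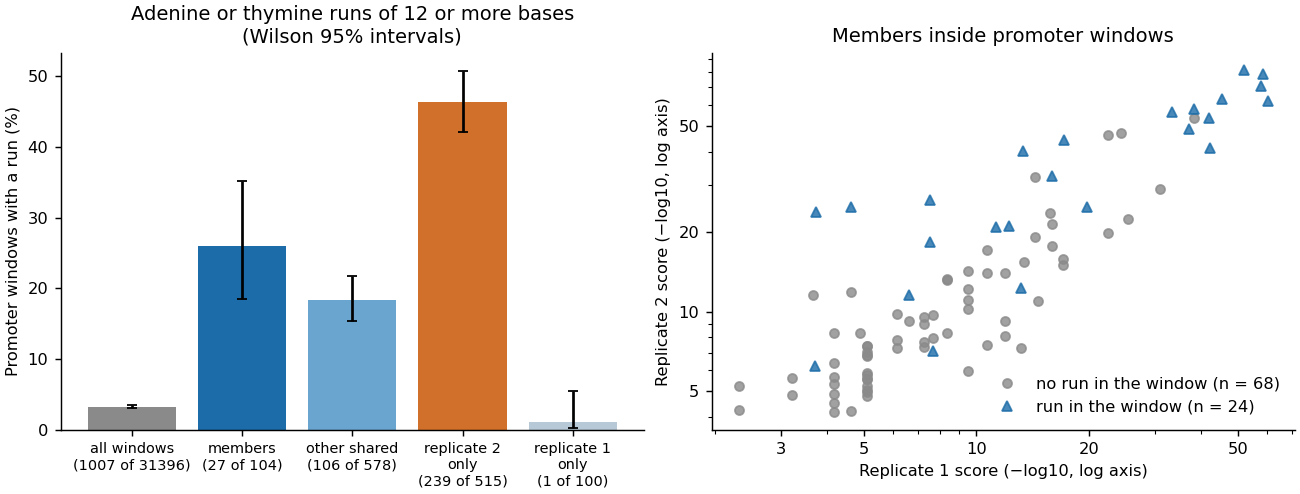
Left, share of promoter windows (%) with a run of 12 or more adenines or thymines, for all windows and for windows with a summit of each set, with Wilson 95% intervals. Right, scores of members inside promoter windows in both replicates (log axes), where members with a run (triangles, n = 24, medians 16.5 and 36.5) lie mostly above those without (circles, n = 68, medians 7.25 and 8.33).

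Known motifs were then counted in the same kind of window of coding genes, on both strands, as letters and not as bound sites. The GC box GGGCGG was in 61.7% of 209 windows with a member within 500 bp, 61.0% of 1116 with another shared summit and 47.0% of all 20084. The E-box CACGTG was in 14.4% (10.2 to 19.8%), 8.24% and 7.89%, and the ETS motif CCGGAAGT in 10.53%, 12.2% and 5.28%. TGTGGT (Runx) was in 16.3%, 14.6% and 14.8%, TGACTCA (AP-1) in 2.39%, 2.96% and 4.70%, and TTCNNNGAA (STAT) in 3.83%, 6.90% and 7.78%. The CTCF core, searched after the sequences were seen, was in 9 of the 104 windows with a member inside (8.65%, 4.62 to 15.6%), 8 of 100 with a replicate 1 summit alone (8%, 4.11 to 14.998%), 3.29% of those with another shared summit, 3.88% of those with a replicate 2 summit alone and 2.47% of all windows. Its 9 members, which include those at Nabp2, Peli1 and Flt3l, had no run in their windows. This did not hold for the core without its first letter, found in 17 of the 104 windows (16.35%), of which 12 had no run. That shorter core was in 14% of windows with a replicate 1 summit alone and 9.17% with another shared summit. It was in 7.57% with a replicate 2 summit alone and 6.50% of all windows.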

How the data were processed

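Summits of 2 KAP1 samples were used; the 2 inputs were not analysed here. The submitters' processing notes name MACS2 2.2.1, Bowtie2 2.2.9, Picard 2.1.1 and the build mm10. For settings, control and threshold, values were not given in the sources used here. The deposited score is on a −log10 scale, of either a q-value or a p-value (the lists do not state which). It is the authors' value and served to describe summits and to rank them within a list. Where scores of both replicates are set side by side, the lists differ in length and were not brought to a common scale. Each list is of 1 sample, so replicates were not pooled in these lists.

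Positions are 1-based. Genes, starts and promoter sequences came from RefSeq tables of GRCm38.p6, without chromosome 18 in the promoter table. Computations used Python 3.11.15, pandas 2.3.3 and scipy 1.17.1. The steps that pair and cluster summits were tested on simulated data with planted clusters, and the other steps were not. Shares have Wilson 95% intervals for counting error only, since summits are not independent, and no test was made. Named clusters were the 12 with most members, the 6 densest and the 6 highest in mean rank among those of at least 4 members, and those covering a gene of the T cell lists, plus Foxp3, Trim28, Il2ra, Ctla4 and Ikzf2. The rule asked for up to 12 of the T cell clusters to be described and the rest listed by gene; scores are given for more. There were 11 gene lists and 7 families by name, and 1 covered gene of the T cell lists is not reported here. The members and lists were chosen with earlier results of these data known. Added after the data were seen were the runs, the CTCF core, the sequences printed, the mentions of Prr12, Extl1, Fam117a, Slc35b2, S100a6, Tomm22, Peli1, Flt3l, Mir21a, Mir150 and Trac, and the alternatives so named. Alternatives changed the shared distance, the chaining distance, the number of neighbours, the scores kept, the gene end width and the replicates used.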

Additional observations from a re-analysis of the deposited data

How the results depend on the processing

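Of 89 alternative values, 47 stayed within the Wilson interval of the reported share or within 1.5 times the reported count, and 42 moved further. A shared distance of 50 bp gave 18.3% of shared summits as members and one of 500 bp gave 21.2%, and merging summits within 1000 bp gave 17.3%. At 0.5 of the chaining distance there were 699 members (9.15%) in 269 clusters, at most 6 to a cluster, with 15.6% at gene ends, 209 coding genes covered and 8 T cell list genes (15 in the reported clusters). At 2 times the distance there were 3020 members (39.5%), 801 clusters, 1416 coding genes and 27 T cell list genes. With 3 or more neighbours required there were 557 members (7.29%), 188 clusters, 184 coding genes and 8 T cell list genes. Scores at or above each list's median gave 473 members (11.2%), 168 clusters, 172 coding genes and 4 T cell list genes, and 121 of the 390 clusters of 3 or more kept at least 3 members. Trimming replicate 2 to its 8862 highest scores, there were 183 members (5.81%), 72 clusters of at most 5, 21.3% at gene ends, 70 coding genes and 2 T cell list genes, and 45 of the 390 clusters kept 3. Gene ends of 500 and 2500 bp held 11.5% and 31.1% of members. Each replicate alone (leaving out replicate 1, with the 7641 highest scores of replicate 2 in its place, then leaving out replicate 2) gave 542 and 2554 members, 7.09% and 29.1% clustered, 237 and 726 clusters, at most 5 and 15 to a cluster, 218 and 752 coding genes, and 11 and 27 T cell list genes. Added after the data were seen, removal of 123 shared summits in promoter windows with a run left 1490 members and 14 T cell list genes, and only clusters of 3 or more covered 13. No paired analysis was possible because no result comes from a test. Read depth is unknown for these lists.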
